A study of Mus musculus with 2 samples.

Results

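The cytosolic ribosomal protein genes encode the proteins of the ribosome that translates nuclear mRNAs in the cytoplasm. Members were all annotated protein-coding mouse genes whose symbol is Rpsa or follows the standard Rpl, Rplp or Rps naming, which gave 83 of 55450 annotated genes and 83 of 21938 protein-coding genes of the nuclear genome. Of the 83, 77 are canonical ribosomal proteins, 46 of the large subunit with its stalk and 31 of the small subunit, and 6 are paralogues (Rpl3l, Rpl7l1, Rpl10l, Rpl22l1, Rpl39l and Rps27l). Membership followed from the symbols alone, and no measured value entered the rule. Total RNA-seq was run on adrenal gland of B6CASTF1/J females, the F1 of a C57BL/6J and a CAST/EiJ parent, at 36 days of age, from 300 ng of RNA after reduction of ribosomal RNA, with ERCC spike-in RNAs added. The animals carried no stated mutation and received no stated treatment, and 2 libraries, replicate 1 and replicate 2, made up the only group. The labels are not uniform on whether the libraries came from different animals, so the SDs below may measure only the spread between libraries. With 1 group there was no comparison of conditions and no test. Ratios between the libraries compare those libraries alone.

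Expected counts in the gene tables summed to 35684781 in replicate 1 and to 38701795 in replicate 2, and the tables estimated straight from the reads held 34946406 and 37598352. The tissue label was checked on marker lists. All 6 markers of steroid-making cortex were detected, with sums of 11623 TPM (replicate 1) and 11597 TPM (replicate 2), as were all 5 chromaffin markers, with sums of 1480 and 1110 TPM. Fat markers summed to 1331 and 1246 TPM, and red cell markers to 965 and 760 TPM. Skeletal muscle markers stood apart, with 225 TPM in replicate 1 and 1.55 TPM in replicate 2.

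Each ribosome holds a single copy of nearly every ribosomal protein, so their mRNAs have to supply many proteins in matched amounts. In mammals these mRNAs belong to the TOP class: their 5′ end begins with a C followed by a run of pyrimidines, through which mTOR signalling and the protein Larp1 set their translation. Most members also have many processed pseudogenes, which are intronless copies of the mRNA placed elsewhere in the genome. Short reads from the mRNA can match such copies as well as the gene itself.

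The following pairs of coding stretches are shown because a copy of each gene held many counts in at least 1 quantification. Each begins at the start codon, was read from the GENCODE M21 transcripts (mm10) and is 60 bases long, and capitals mark bases that differ within the pair. Rps23 (chr13:90923196-90923642, plus strand, spliced across an intron) and its processed pseudogene Rps23-ps1 (chr3:37714740-37714799, plus strand) were the same over all 425 bases of the pseudogene. Rpl10 (chrX:74271002-74271696, plus strand, spliced) and Rpl10-ps3 (chr9:50344882-50344941, minus strand), a copy annotated as protein-coding, were the same over 740 aligned bases. Rpl3 (chr15:80082526-80083326, minus strand, spliced) and Rpl3-ps1 (chrX:13202572-13202631, plus strand) were the same at 1208 of 1210 aligned bases, with 1 of the 2 differences inside the stretch.
Rps23: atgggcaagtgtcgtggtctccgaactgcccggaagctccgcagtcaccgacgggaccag
Rps23-ps1: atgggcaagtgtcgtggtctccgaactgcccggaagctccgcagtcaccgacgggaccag
Rpl10: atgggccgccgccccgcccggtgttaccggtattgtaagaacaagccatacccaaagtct
Rpl10-ps3: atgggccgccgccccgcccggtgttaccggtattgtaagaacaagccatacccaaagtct
Rpl3: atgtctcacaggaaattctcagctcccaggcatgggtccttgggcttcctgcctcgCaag
Rpl3-ps1: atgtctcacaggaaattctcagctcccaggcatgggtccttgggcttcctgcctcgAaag

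The start sites of members were looked at for the pyrimidine run of TOP mRNAs. RefSeq promoter windows (GRCm38.p6) matched 63 of the 83 members by symbol, with 75 start sites. Counted from the annotated start on, at least the first 5 bases were all C or T in 16 of the 75 sites (21.3%), against 1457 of all 32851 sites in the table (4.44%). C or T bases before the start were not counted, so a run may reach farther upstream. The first base could be C or T. Among the 16 it was T in Rpl27a, Rpl7a and Rps24, which therefore lack the first C of a TOP mRNA at the annotated start. The letters CCGGAAG or their reverse complement CTTCCGG, the core letters of sites bound by ETS family factors, were present in 27 of the 75 windows from 250 bases before to 50 bases after the start (36.0%), against 2910 of 32851 windows of the same length (8.86%). A match of letters is a description of the window and not a bound site. The 5 stretches below run from 15 bases before the annotated start to 15 bases from it on, on the gene's strand. Capitals mark the C or T bases counted from the start on. In all 5 the C or T bases continue upstream in lower case, so the capitals show only part of each run. From the start on, Rpl15 (chr14:18270972-18271001, minus strand) had 13 such bases, Rpl35 (chr2:39005117-39005146, minus strand) 11, Rps6 (chr4:86857353-86857382, minus strand) 9, Rpl28 (chr7:4792950-4792979, plus strand) 8 and Rplp2 (chr7:141447636-141447665, plus strand) 5.
Rpl15: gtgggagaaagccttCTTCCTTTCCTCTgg
Rpl35: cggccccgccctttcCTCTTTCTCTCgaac
Rps6: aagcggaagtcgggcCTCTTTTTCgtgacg
Rpl28: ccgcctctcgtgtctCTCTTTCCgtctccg
Rplp2: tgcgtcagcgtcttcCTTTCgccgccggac

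The mRNAs of the cytosolic ribosome were abundant in both libraries. Together the 83 members took 6.91% of the TPM of nuclear protein-coding genes in replicate 1 and 6.87% in replicate 2 (6.89 ± 0.0298%, mean ± SD, n = 2), where TPM is a transcript abundance scaled for length and for library total. By expected counts, which are not divided by length, they took 1.85% and 1.81%. In total RNA from a whole gland, a change in the number of cells and in the RNA per cell cannot be told apart. At 1 TPM or more in both libraries, 80 of 83 members were detected (96.4%), against 53.1% of nuclear protein-coding genes. At 100 TPM or more in both libraries stood 71 members (85.5%), against 2.27% of nuclear protein-coding genes, so that members made up 14.3% of the 497 genes above that level.

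The 77 canonical genes were all detected and had a median mean level of 264 TPM, with quartiles at 185 and 337 TPM. The extremes were 17.7 and 851 TPM, a 48.2-fold range, and 64 of the 77 genes lay within 2-fold of the median. The SD of log2 mean TPM across them was 0.925. The median level of large-subunit genes was 249 TPM in replicate 1 and 245 TPM in replicate 2. For small-subunit genes it was 267 and 283 TPM. The difference in median log2 level, large minus small, was -0.18 in the gene table but 0.11 in the read-derived table, so its sign depended on the quantification.

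**Figure D1:**
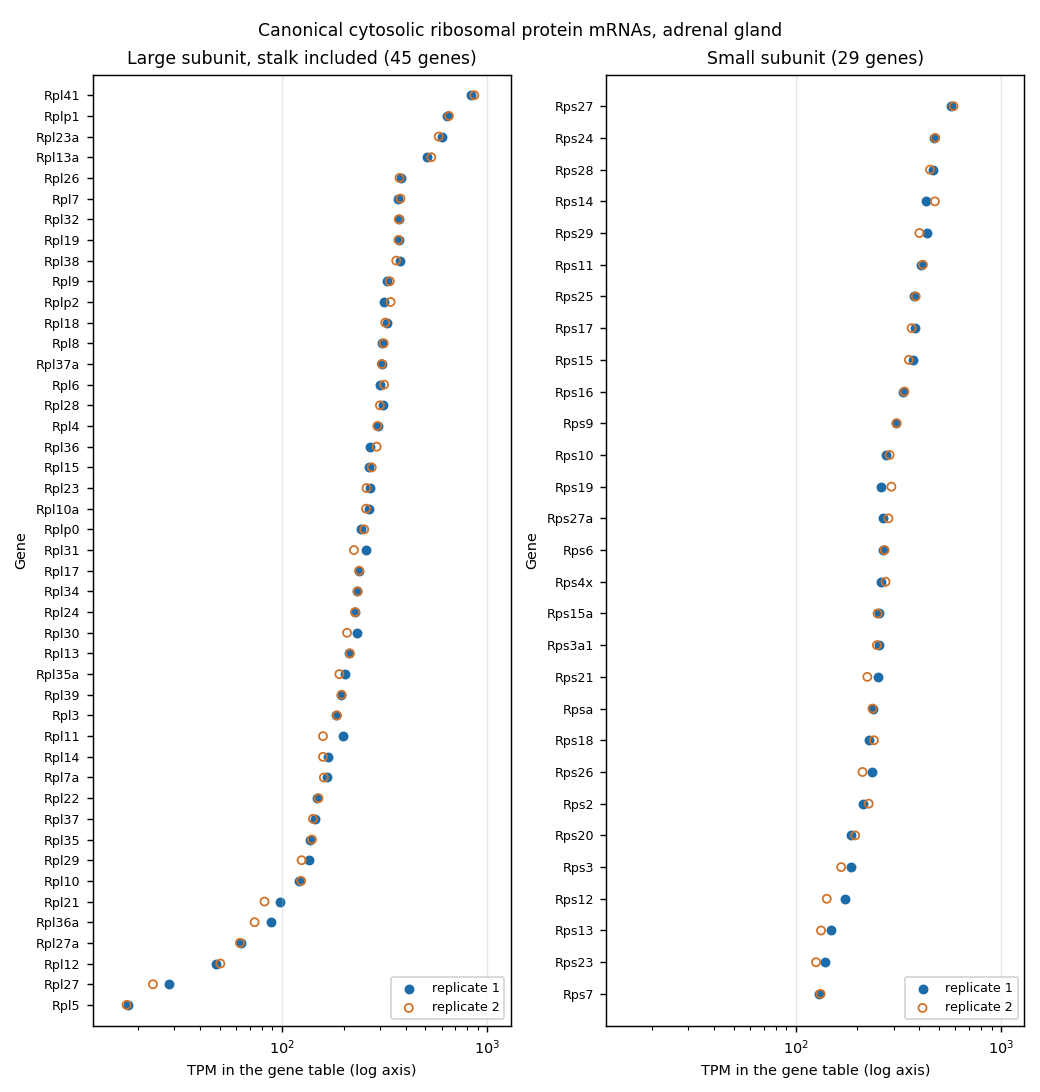
TPM of 74 of the 77 canonical genes in the gene table, on a log axis, for the large subunit with its stalk (left, 45 genes) and the small subunit (right, 29 genes); filled points are replicate 1 and open points replicate 2, and genes are ordered by mean. Most genes lie between 100 and 500 TPM, and the 6 under 100 TPM, Rpl21, Rpl36a, Rpl27a, Rpl12, Rpl27 and Rpl5, are all of the large subunit.

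Among large-subunit genes, Rpl41, which encodes a very short basic peptide, was the highest member, with 837 TPM in replicate 1 and 864 TPM in replicate 2. Rpl23a, whose protein lies at the exit of the peptide tunnel, had 603 and 580 TPM, and Rpl13a had 511 and 534 TPM. Rpl41 did not overlap any other member, while Rpl23a overlapped Rps27 (574 and 587 TPM). Rpl3, whose protein reaches the peptidyl transferase centre, had 184 and 185 TPM, and Rpl11, which forms a particle with Rpl5 and 5S rRNA that can bind Mdm2, had 199 and 159 TPM.

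The lowest canonical genes were all of the large subunit. Rpl5, the partner of Rpl11 in the 5S particle, had 17.8 TPM in replicate 1 and 17.6 TPM in replicate 2. Rpl27 had 28.4 and 23.6 TPM, Rpl12, whose protein sits at the base of the stalk, 47.8 and 50.2 TPM, and Rpl27a 63.2 and 62.5 TPM. Rpl36a had 88.1 and 73.7 TPM, and Rpl21 98.0 and 82.4 TPM. These 6 genes were the only canonical ones under 100 TPM by mean in the gene table, and in the read-derived table they had mean levels from 184 TPM for Rpl12 to 666 TPM for Rpl27a.

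The stalk of the large subunit, built on Rplp0 with dimers of Rplp1 and Rplp2, recruits the translation elongation factors. Rplp1 was the second highest member, with 635 TPM in replicate 1 and 651 TPM in replicate 2. Rplp2 had 315 and 338 TPM, and Rplp0, whose mRNA is often used as a reference in quantitative PCR, had 242 and 252 TPM. The 3 levels did not overlap between the genes. In the read-derived table their order was different: Rplp1 had 670 and 699 TPM, Rplp0 673 and 695 TPM, and Rplp2 601 and 652 TPM, with Rplp1 and Rplp0 overlapping.

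Small-subunit genes were led by Rps27, with 574 TPM in replicate 1 and 587 TPM in replicate 2. Rps24 had 474 and 479 TPM, Rps28 468 and 451 TPM, Rps14 431 and 477 TPM, and Rps29 437 and 401 TPM, and Rps14 overlapped each of the other 3. Rpsa, which docks at the back of the small subunit and is also known as the laminin receptor, had 238 and 237 TPM. Rps6, the substrate of S6 kinase, had 267 and 271 TPM. Rps19, the gene most often mutated in Diamond-Blackfan anaemia in humans, had 262 and 293 TPM. By mean TPM the lowest small-subunit genes in the gene table were Rps7, with 130 and 132 TPM, and Rps23, with 140 and 126 TPM, and their ranges overlapped.

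The precursor of some ribosomal proteins is fused to ubiquitin or a ubiquitin-like protein. Rps27a, made as a ubiquitin fusion, had 268 TPM in replicate 1 and 283 TPM in replicate 2. Fau, whose ubiquitin-like fusion yields the small-subunit protein eS30, had 317 and 329 TPM. Fau is not a member by symbol and does not enter the counts.

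Paralogues were lower than their canonical partners, apart from Rpl36al. Rps27l, which p53 induces in human cells, had 91.4 TPM in replicate 1 and 94.98 TPM in replicate 2, against 574 and 587 TPM for Rps27. Rpl22l1 had 72.9 and 70.4 TPM, against 148 and 151 TPM for Rpl22. Rpl7l1 had 24.9 and 27.0 TPM, against 368 and 378 TPM for Rpl7. Rpl36al, whose symbol falls outside the naming rule, had 196 and 196 TPM, against 88.1 and 73.7 TPM for Rpl36a. In the read-derived table it was also the higher of the pair, with 348 and 345 TPM, against 269 and 250 TPM for Rpl36a. Rps4l, also outside the rule, had 9.87 and 10.3 TPM, against 260 and 274 TPM for Rps4x. Rps27rt, a further copy outside the rule, had 11.1 and 13.3 TPM in the gene table and was listed at 0 in the read-derived table in both libraries.

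Paralogues known from other tissues were near or at 0. Rpl10l, a retrogene that serves male germ cells in place of the X-linked Rpl10, had 0 counts in both libraries, as did Rpl39l, also known from testis. A count of 0 allows up to 3 counts, that is, scaled to a common library total (CPM), 0.0841 CPM in replicate 1 against 0.0775 CPM in replicate 2, which covers counting error alone. The 4 germ cell markers were all under 1 TPM, with sums of 0.73 TPM in replicate 1 and 0.67 TPM in replicate 2. Prm1 was at 0 in both.

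Rpl3l, a paralogue of Rpl3 used in skeletal and heart muscle, had 1.67 TPM and 77 counts in replicate 1 (exact Poisson 95% interval 60.8 to 96.2 counts, counting error only) and 0 counts in replicate 2. As a share of all counts, the 77 counts of replicate 1 stood 27.8-fold above a floor of 3 counts in replicate 2. The lower end of the interval would give a smaller ratio. The 5 skeletal muscle markers moved with it, each between 11.3 and 97.6 TPM in replicate 1 and between 0.06 and 1.11 TPM in replicate 2, none of them at 0 in both. Liver markers moved the same way, with 28.3 and 1.5 TPM in sum. The part of muscle RNA in the Rpl3l difference was not tested.

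The members stood close together between the libraries. Of the 80 members with 200 or more counts summed over both libraries, 0 differed 2-fold or more in TPM, against 88 of 11594 nuclear protein-coding genes (0.759%). A share that low leaves few if any genes among 80, so this 0 alone does not set the members apart. Within 10% of each other lay 66 of 80 members (82.5%), against 54.5% of nuclear protein-coding genes. Genes at this level of expression varied little in general: of the 426 other protein-coding genes at 100 TPM or more in both libraries, 79.6% lay within 10%. The log2 ratio of replicate 1 over replicate 2, on TPM + 0.1, had a median of 0.00 and an SD of 0.10 over members, against a median of 0.01 and an SD of 0.137 over those 426 genes. It was above 0 for 41 members and below 0 for 39. Of those 426 genes, 231 were above 0 and 193 below. Of the 11594 nuclear protein-coding genes, 4763 were above 0 and 6786 below. The even split of the members holds on the TPM scale: with TMM-scaled counts their median log2 ratio was 0.047. The 3 members under 200 counts were Rpl10l, Rpl39l and Rpl3l.

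**Figure D2:**
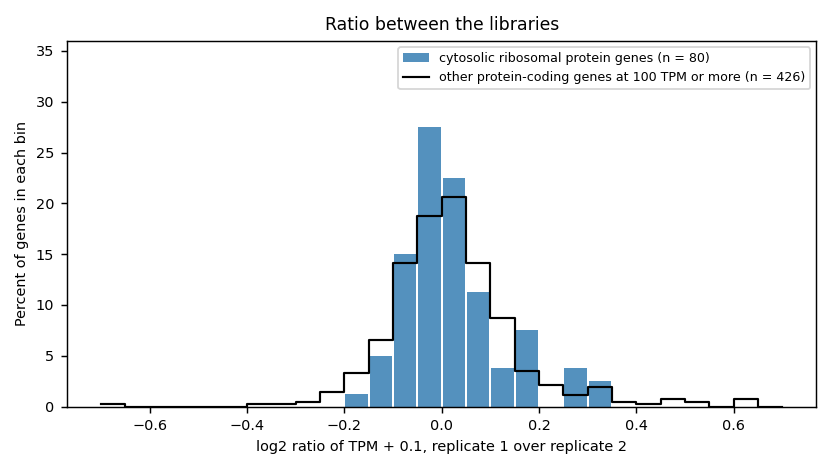
Percent of genes by log2 ratio of TPM + 0.1, replicate 1 over replicate 2, in bins of 0.05; bars are the 80 members with 200 or more summed counts, and the line is the 426 other protein-coding genes at 100 TPM or more in both libraries. The members' ratios run from -0.16 to 0.32, with a small group above 0.2.

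Among the 80 members with 200 or more counts, the 5 farthest apart between the libraries were all higher in replicate 1. The log2 ratio was 0.32 for Rpl11 (199 TPM in replicate 1 and 159 TPM in replicate 2), 0.30 for Rps12 (175 and 142 TPM), 0.27 for Rpl27 (28.4 and 23.6 TPM), 0.26 for Rpl36a (88.1 and 73.7 TPM) and 0.25 for Rpl21 (98.0 and 82.4 TPM). Rps19 was the lowest at -0.16. These 5 were picked as extremes of the gene table. In the read-derived table Rpl11 had 677 and 641 TPM, Rps12 476 and 454 TPM, Rpl27 371 and 366 TPM, Rpl36a 269 and 250 TPM and Rpl21 395 and 365 TPM. Other members were farther apart there, with a log2 ratio of 0.59 for Rpl19, -0.28 for Rps14 and -0.21 for Rps19, and the SD over the 80 members was 0.102. Over all 80 members the SD of the log2 ratio of count shares was 0.0969 for the genes alone and 0.0635 once the counts of their near-identical copies were added.

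The deposit quantified each library in more than one way, and the members differed between the quantifications far more than between the libraries. In TPM, 43 of 80 members were 2-fold or more lower in the gene table than in the read-derived table in both libraries (53.8%), against 17.4% of nuclear protein-coding genes, and 0 were 2-fold or more higher, against 0.25%. The median log2 ratio, gene table over read-derived table, was -1.08 over members, -0.79 over nuclear protein-coding genes and -0.91 over the non-member genes among them with a length under 1000 bases. The lengths behind TPM differed too. In the gene table the cut from a transcript's length was 99 bases. In the read-derived table it was 329 bases for longer transcripts, and fewer for short ones. TPM is scaled for length, so the TPM of a member is not directly comparable between the quantifications. How much these lengths added to the TPM ratios was not tested. The share of all counts, which does not use length, had a median log2 ratio of -0.16 both over members and over nuclear protein-coding genes. By that share, 7 members were 2-fold or more lower in the gene table in both libraries (8.75%), against 0.267% of nuclear protein-coding genes, and 5 were 2-fold or more higher (6.25%), against 0.569%. The SD of this log2 ratio was 0.717 over the canonical members and 0.974 over the 851 other nuclear protein-coding genes with a mean transcript length under 1000 bases. It was 0.221 over proteasome core subunits. Over mitochondrial ribosomal proteins it was 0.20 without Mrpl23, which had under 200 summed counts in the gene table, and 0.455 with it. Mrpl23 had 0.59 and 2.46 TPM in the gene table, against 60.7 and 61.3 TPM in the read-derived table.

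The 7 members lower in the gene table were Rpl27, Rpl10, Rps23, Rpl5, Rpl27a, Rpl28 and Rpl21. Rpl27 had 540 expected counts in replicate 1 and 526 in replicate 2 in the gene table, against 3358 and 3512 in the read-derived table (log2 ratio of count share -2.71). Rpl10, which joins the large subunit late in its assembly, had 3071 and 3376, against 11459 and 12664 (-1.94). Rps23, a protein of the decoding centre, had 2252 and 2116, against 6957 and 7421 (-1.75). Rpl5 had 1035 and 1052, against 3319 and 3395 (-1.72). The remaining log2 ratios were -1.35 for Rpl27a, -1.34 for Rpl28 and -1.09 for Rpl21. These genes were picked for being 2-fold or more lower in both libraries, so that both libraries were low is no further result.

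Near-identical copies of the members held a large part of the counts. By alignment of annotated transcripts, at 90% identity or more over 70% or more of the copy, 80 members had at least 1 copy, with a median of 10 and up to 92 for Rpl7a. There were 1140 copy genes, 1126 of them annotated as pseudogenes. In the tables derived from alignments, copies held 21.6% of the counts of members and copies together in replicate 1 and 22.3% in replicate 2, against 10.6% and 11.1% in the read-derived tables. With 100 or more counts in both libraries stood 89 copies in the alignment-derived tables and 42 in the read-derived tables. More than 50% of a gene's joint counts lay on copies for 13 members in the alignment-derived tables and for 1, Rpl5, in the read-derived tables.

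The paired sequences printed above show how differently single copies were treated. Rps23-ps1, which has no base that differs from Rps23, had 4261 expected counts in replicate 1 and 4988 in replicate 2, against 0 and 0 in the read-derived tables. Rpl10-ps3 had 7624 and 8646 expected counts, against 0 and 0. Rpl28-ps1, identical to Rpl28 over its 414 bases, had 3962 and 4090 expected counts, against 0 and 0. For Rpl27, the identical 411-base copies Gm11518 on chromosome 11 and Rpl27-ps3 on chromosome 18 had 1340 and 1452 expected counts each, against 0 and 0.

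Copies that carry differences were counted alike in some cases and not in others. Rpl3-ps1, with its 2 differing bases, had 5130 and 6246 expected counts in replicates 1 and 2, against 5082 and 6184 in the read-derived tables. Rps2-ps13, with 7 differing bases in 882, had 5004 and 5703 expected counts, against 4206 and 4779. Gm10288, a copy of Rpl11 at 99.8% identity, had 2024 and 2632 expected counts, against 143 and 225, and Rpl34-ps1, at 99.4% identity to Rpl34, had 1062 and 1201, against 0 and 0. A wider group was every copy not identical over its whole length or all but 1 base. It included Rpl10-ps3, which had no differing base in 740 aligned bases of its 768. This group held 81192 and 90542 counts in all in the alignment-derived tables, against 43699 and 48530 in the read-derived tables. Identical over their whole length or all but 1 base, and with 100 or more expected counts in both libraries, were 15 copies. Of these, 11 were at 0 and 4 had 100 or more counts in both read-derived tables. Of 74 copies in the wider group with that many expected counts, 19 were at 0 and 37 had 100 or more counts in both read-derived tables. Among the 4 identical copies with read-derived counts was Gm15500, identical to Rpl5 over 1018 of its 1019 bases. It had 8833 and 9794 expected counts, against 6661 and 7546 in the read-derived tables. Gm7536, identical to Rpl27a over all its 444 bases, had 3164 and 3494, against 907 and 1021. Rps12-ps3, identical to Rps12 over all its 494 bases, had 2848 and 2950, against 702 and 753. Short reads cannot place a fragment within an identical stretch, so the level of such a gene or of its copy alone is uncertain in either table.

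**Figure D3:**
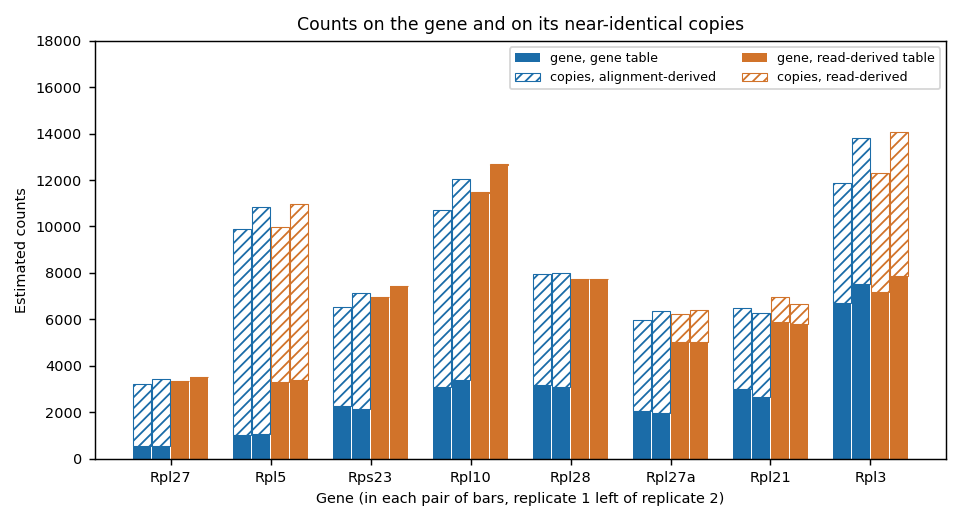
Estimated counts on the 7 members that were 2-fold lower in the gene table, and on Rpl3; solid bars are the gene and hatched bars its near-identical copies, blue in the gene and alignment-derived tables and orange in the read-derived tables, with replicate 1 left of replicate 2. The totals of gene and copies are close between the quantifications, while their division differs, except for Rpl3.

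With the copies added, the quantifications came together at the low end. The log2 ratio of count share of the 7 low members then lay between -0.13 and 0.01. Over the 80 members the SD of this ratio was 0.705 for the genes alone and 0.373 with copies, 0 members were 2-fold or more lower, and 4 were 2-fold or more higher. Across the 77 canonical genes, the Pearson correlation of log2 counts between the quantifications in replicate 1 was 0.627 for the genes alone and 0.854 with copies. Both quantifications start from the same reads, so these correlations describe the processing. Reference mRNAs were touched as well: copies held 25.9% and 26.1% of the joint expected counts of Rplp0, against 23.3% and 23.3% in the read-derived tables, and 39.9% and 40.4% for Rps18, against 33.4% and 31.5%.

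**Figure D4:**
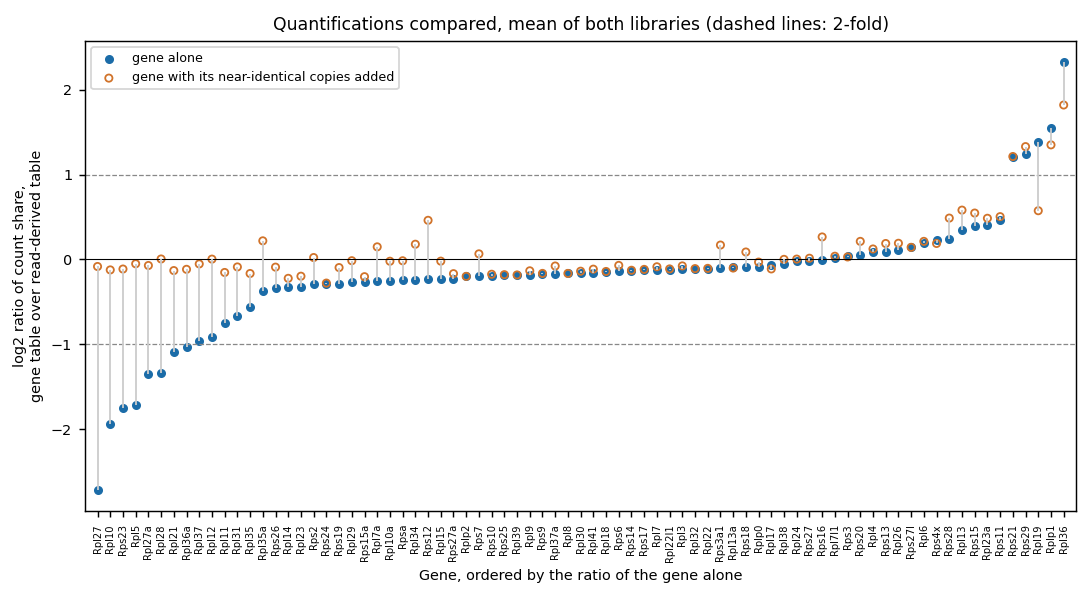
Log2 ratio of the share of all counts, gene table over read-derived table, as the mean of both libraries, for 77 of the 80 members with 200 or more summed counts; filled points are the gene alone, open points the gene with its near-identical copies added, and dashed lines mark 2-fold. The low members at the left move to near 0 with copies added, while Rps21, Rps29, Rplp1 and Rpl36 at the right stay above 1.

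The 5 members that were 2-fold higher in the gene table were Rpl36, Rplp1, Rpl19, Rps29 and Rps21. Rpl36 had 2744 counts in replicate 1 and 3179 in replicate 2 in the gene table, against 551 and 595 in the read-derived table (log2 ratio of count share 2.32, and 1.82 with copies). Rplp1 had 9162 and 10072, against 3049 and 3346 (1.55, and 1.35 with copies). Rpl19 had 8765 and 9313, against 4003 and 2846 (1.38, and 0.57 with copies), and its copies held 34.2% and 53.7% of joint counts in the read-derived tables, against 2.71% and 3.66% in the alignment-derived tables. Rps29 had a ratio of 1.25, and 1.33 with copies, and Rps21 had 1.21, and 1.21 with copies.

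Rpl36, Rps21 and Rps29 are among the 7 canonical genes under 400 bases in mean transcript length, with 383, 395 and 390 bases in replicate 1. Short length did not go with a high ratio in each of the 7. Rps27, at 347 bases, had a log2 ratio of -0.02, Rpl38, at 357 bases, -0.05, Rps28, at 385 bases, 0.25, and Rpl28 -1.34. Rplp1 had 499 bases. The part of length in these ratios was not tested.

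In TPM, the order of the canonical genes was only partly shared. The read-derived table gave a median of 578 TPM and an 11.9-fold range, with 66 of 77 genes within 2-fold of the median and an SD of log2 TPM of 0.650. Rpl41 ranked first in both tables. Rpl10 ranked 71 of 83 in the gene table and 7 in the read-derived table, Rps23 68 and 12, and Rpl27a 76 and 27. In the other direction, Rplp1 ranked 2 and 24, Rpl19 17 and 68, and Rpl36 33 and 74.

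The TPM of a member was not always assigned to a transcript annotated as protein-coding. In the alignment-derived tables a median of 97.7% of a canonical gene's TPM lay on protein-coding transcripts, with 53 genes at 90% or more and 13 under 50%, and in the read-derived tables the median was 87.0%, with 37 genes at 90% or more and 23 under 50%. Retained-intron transcripts held a median of 0.951% and 1.36%. The same values over all nuclear protein-coding genes are not given, so this division among transcripts is not shown to be particular to the members. Rps16 and Rps27 were chosen after their values were seen. Rps16 had 1.66% of its TPM on protein-coding transcripts in replicate 1 and 1.85% in replicate 2 in the alignment-derived tables, against 16.4% and 15.8% in the read-derived tables. Rps27 had 99.4% and 99.1%, against 0.214% and 0.223%. The libraries lay close together for both genes within a quantification, and the quantifications were far apart, in opposite directions.

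Members sat on 19 chromosomes, with 14 on chromosome 7 and 4 on the X chromosome (Rpl10, Rpl36a, Rpl39 and Rps4x). Of the 83, 30 hosted at least 1 annotated small nucleolar RNA gene on their strand, 58 in all and up to 5 in Rpl4. On the opposite strand, 23 members overlapped another gene, and 5 members overlapped a gene on their own strand, among them Rps10 with RPS10-NUDT3. These counts of position, hosting and overlap are not set against a share over all genes. They describe the members and do not mark them out. The sources used here do not state whether counting used strand, so the counts of overlapping genes are uncertain.

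Other gene lists gave a scale for these levels. The canonical members had a median of 264 TPM, and the 77 detected of 78 mitochondrial ribosomal protein genes, whose ribosome translates the mRNAs of the mitochondrial genome, 26.5 TPM. Mrpl33 was the highest of these, with 127 TPM in replicate 1 and 128 TPM in replicate 2, before Mrps21 (93.6 and 84.0 TPM) and Mrpl30 (66.7 and 68.1 TPM). The SD of log2 mean TPM was 0.925 across the canonical members and 0.790 across the mitochondrial ones. The 14 core subunits of the proteasome, another large complex of fixed composition, had a median of 71.9 TPM and an SD of 0.664, with Psmb5 (133 and 124 TPM), Psma3 (125 and 120 TPM) and Psmb7 (109 and 99.3 TPM) as the highest.

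Other TOP mRNAs, 19 genes for elongation and initiation factors and for other proteins, among them Vim, Hnrnpa1, Nap1l1 and Impdh2, had a median of 92.1 TPM. Eef1a1, which brings aminoacyl-tRNA to the ribosome, had 2157 TPM in replicate 1 and 2041 TPM in replicate 2, above every member. Tpt1 had 892 and 898 TPM and Eef2, the translocation factor, 464 and 468 TPM. The 33 genes of ribosome biogenesis had a median of 16.9 TPM, led by Npm1 (93.2 and 91.1 TPM), Rrp1 (70.6 and 73.7 TPM) and Ncl (70.4 and 67.3 TPM). The 14 genes of mTOR and TOP control had a median of 24.2 TPM, led by Eif4e (61.4 and 58.6 TPM), Eif4ebp1 (42.0 and 51.9 TPM) and Eif4ebp2 (34.0 and 33.4 TPM). In each of these 5 lists, 0 genes with 200 or more counts differed 2-fold between the libraries, against 0.759% of nuclear protein-coding genes. The lists held 14 to 77 such genes, in which a share that low leaves few if any. The 0 does not set the lists apart.

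**Figure D5:**
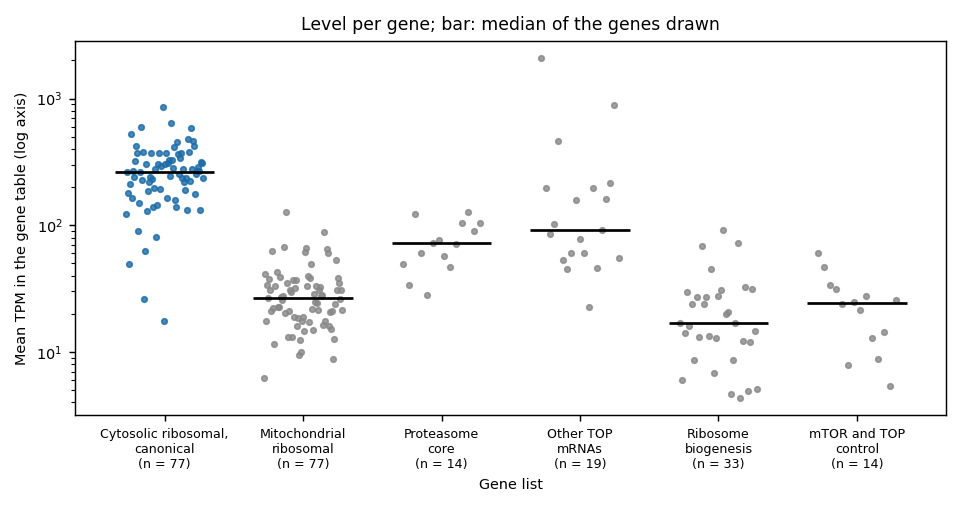
Mean TPM of both libraries in the gene table, on a log axis, for each gene at 1 TPM or more in both libraries in 6 lists; the black bar is the list's median. The canonical ribosomal proteins have a median of 264 TPM, and the other lists lie between 16.9 TPM for ribosome biogenesis and 92.1 TPM for other TOP mRNAs.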

How the data were processed

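Per the file headers, the deposited gene and alignment-derived transcript tables give an expected count and TPM per entry, and the deposited read-derived transcript tables give an estimated count and TPM. Text beside the deposited files names mm10 and GENCODE M21; for the aligner, tool versions, filters and use of strand, nothing is given in the sources used here. Read-derived transcripts were summed per gene. TPM sums over all entries, so it depends on which RNAs each table holds. Effective lengths were the length minus 99 bases in the gene tables. In the read-derived tables they were the length minus 329 for longer transcripts, with fewer bases taken off short ones.

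The gene family and the lists were chosen for study with earlier results of these data known; within the family, membership used symbols only. Levels are means and SDs over 2 libraries. Ratios used TPM + 0.1 in genes whose counts summed to 200 or more, and count shares were shares of all counts. A gene counted as 2-fold apart between quantifications if both libraries were. Scaling alternatives used edgeR 4.0.16 (TMM) and DESeq2 1.42.0 in R 4.3.3 on rounded counts. Copies were found with BLAST 2.17.0 (megablast, expect value 1e-20) at 90% identity over 70% of their length, a rule chosen after seeing the data, and each was given to its best-scoring member. Tables were handled in Python 3.11.15 with pandas 2.3.3. Named in full were the 10 highest and 10 lowest members, paralogues with partners, the stalk, Rpsa, the 5 farthest ratios between libraries and each way between quantifications, and the 3 highest of other lists. Total depth was 35684781 and 38701795 expected counts; floors and intervals hold only for counting error, as no molecular identifiers are stated. Some items are not reported here, nor drawn by name in the figures.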

Additional observations from a re-analysis of the deposited data

How the results depend on the processing

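No paired analysis was possible because the libraries form 1 group. Of 45 alternatives, 29 left the value within the spread and 16 moved it. The 29 include each case of leaving out 1 library. With 2 libraries those values are themselves the spread, so they could not fall outside it and show no stability. The cause of each move was not tested. The members' share of nuclear protein-coding TPM was 8.08% from the read-derived tables and 6.73% from protein-coding transcripts alone. The SD of log2 TPM across canonical members was 0.650, 1.68 and 0.892 with read-derived values, protein-coding transcripts only and annotated length. The large-minus-small difference was 0.11 in the read-derived tables. The median log2 ratio between libraries was 0.047 with TMM and 0.046 with DESeq2 scaling. With a minimum of 50 summed counts, or with no minimum, 1 member (Rpl3l) was 2-fold apart. The median log2 ratio between quantifications was -0.16 by count share, and -0.052 and -0.061 with copies at 90% and 95% identity. The number 2-fold apart was 12 by count share, and 4 and 4 with copies. Leaving out either library gave 80 to 81 members detected, a share of 6.87% to 6.91%, an SD of 0.909 to 0.945, a large-minus-small difference of -0.21 to -0.10, a median between quantifications of -1.11 to -1.06, and 44 to 50 members 2-fold apart. Precision is limited by 2 libraries of 1 group and by stretches shared with copies.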
